A study of Mus musculus with 52 samples.

Results

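Pbsn, Msmb, Sbp, Azgp1, Tgm4, Tmprss2, Mmp7 and Hoxb13 are genes of the prostate epithelium, grouped here as androgen-regulated and secretory genes. They were taken by gene name from the prostate part of the deposited expression table, and all 8 were found among its 23277 genes. All 8 also had a mean of at least 1 TPM in wild-type or Tug1-/- prostate, as did 15547 genes in all. TPM is the share of a gene among all transcripts after correction for gene length, scaled to a fixed total.

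Prostates came from male mice, 3 wild-type and 2 Tug1-/-. The labels give both genotypes a mixed C57BL/6J/129S6 background (N3-C57BL/6J, no Neo) and the strain name Tug1_tm1.1Vlcg. The knockout allele carries lacZ downstream of the native Tug1 promoter and exon 1, with the rest of the gene removed. The labels give no age and no prostate lobe. Libraries were made from polyA RNA of the whole tissue. The other tissues used as background were liver, spleen, heart, eyes and embryonic fibroblasts grown in culture (MEFs), each with 3 wild-type and 3 Tug1-/- samples of the same strain and background, brain from libraries outside the series, and testes. Testes came from 4 wild-type mice (labelled no Neo), 4 Tug1-/- mice and 3 rescue mice (both labelled Neo, LacZ). Rescue mice were Tug1-/- and carried 2 transgenes, tg(Tug1), which doxycycline switches on, and CAGs-rtTA3, whose ubiquitous CAG promoter drives the activator. By the study's methods, rescue males were fed doxycycline up to the end of the experiment, and no such diet is given for the other testes groups. The transgene carries a Tug1 isoform without the 5' part.

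Each group is represented by 1 number per gene, the authors' mean TPM. The values of single samples, their spread and the depth of each library were not used here, so no difference below has an error or a test. Whether a difference exceeds the spread between mice was not tested. In whole tissue, fewer cells of a type and less RNA per cell cannot be told apart.

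The prostate is a gland of male mammals whose luminal epithelial cells release proteins into seminal fluid. Testosterone, and the dihydrotestosterone made from it, act on these cells through response elements in DNA built from 6-base half-sites, often arranged as an inverted pair with 3 bases between them. Withdrawal of androgen shrinks the gland and silences many of its secretory genes. The lobes of the mouse prostate secrete different mixtures of proteins.

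The sequence before the start of these genes is shown for 4 of them. They stand for the most abundant of the 8 genes (Pbsn, Tgm4 and Mmp7) and for a member that reached 1 TPM in several tissues (Tmprss2). Sequences are those of RefSeq on GRCm38.p6, which had a window of 250 bases before the start for 6 members. Each run reads 5' to 3' on the strand of the gene. Those of Tgm4, Mmp7 and Tmprss2 end before both the RefSeq start and the gene start of the deposited table. Capitals mark matches to the half-site AGAACA, sought on both strands (TGTTCT on the other strand), and to TATAAA, sought on the strand of the gene. The motifs do not overlap one another. Tgm4 is shown at chr9:123034491-123034725 (plus strand), Mmp7 at chr9:7691840-7692089 (plus strand) and Tmprss2 at chr16:97611196-97611445 (minus strand).
Tgm4: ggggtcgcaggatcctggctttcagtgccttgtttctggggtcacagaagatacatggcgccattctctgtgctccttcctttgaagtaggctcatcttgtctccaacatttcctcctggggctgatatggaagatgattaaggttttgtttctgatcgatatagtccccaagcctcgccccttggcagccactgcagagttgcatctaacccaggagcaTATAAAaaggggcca
Mmp7: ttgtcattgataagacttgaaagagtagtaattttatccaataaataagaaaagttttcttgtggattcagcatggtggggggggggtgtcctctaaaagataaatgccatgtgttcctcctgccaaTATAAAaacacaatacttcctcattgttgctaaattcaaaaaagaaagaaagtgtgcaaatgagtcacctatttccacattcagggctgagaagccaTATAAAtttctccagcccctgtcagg
Tmprss2: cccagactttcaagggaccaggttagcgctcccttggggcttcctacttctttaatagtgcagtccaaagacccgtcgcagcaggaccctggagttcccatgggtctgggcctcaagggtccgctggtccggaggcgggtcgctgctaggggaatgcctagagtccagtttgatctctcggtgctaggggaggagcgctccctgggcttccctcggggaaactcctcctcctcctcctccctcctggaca

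For Pbsn the RefSeq start lies 123 bases inside the gene as the deposited table draws it, in the noncoding part of its first exon. Only 30 bases around its half-site are therefore shown, at chrX:77853578-77853607 (minus strand). The match begins 95 bases before the RefSeq start.
Pbsn: caactgggatgcAGAACActgctcacgcca

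Of the 6 members 1, Pbsn, had a half-site in its window (16.7%), a share near that of all 32817 RefSeq windows of the same length, 16.1%. The inverted pair with exactly these letters was found in 0 of the 6 windows and in 3 windows of all. TATAAA occurred in 3 of the 6, against 7.60% of all windows. It began 59 bases before the RefSeq start in Pbsn, 30 bases before it in Tgm4, and 26 and 123 bases before it in Mmp7. Tmprss2 had neither motif, and 61.6% of its window was G or C, against 38% in Mmp7. These matches describe letters in short windows and not bound sites.

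As a check of the labels, Tug1 had a mean of 27.8 TPM in wild-type prostate and 0.0553 TPM in Tug1-/- prostate.

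Most of these genes belonged to the abundant transcripts of the wild-type prostate. Together they made up 9.54% of all transcripts in the wild-type mean and 8.85% in the Tug1-/- mean. Pbsn alone gave 69.2% of the members' sum in wild type and 66.2% in Tug1-/-. Between Pbsn and Sbp the wild-type levels per length spanned 40253-fold.

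**Figure D1:**
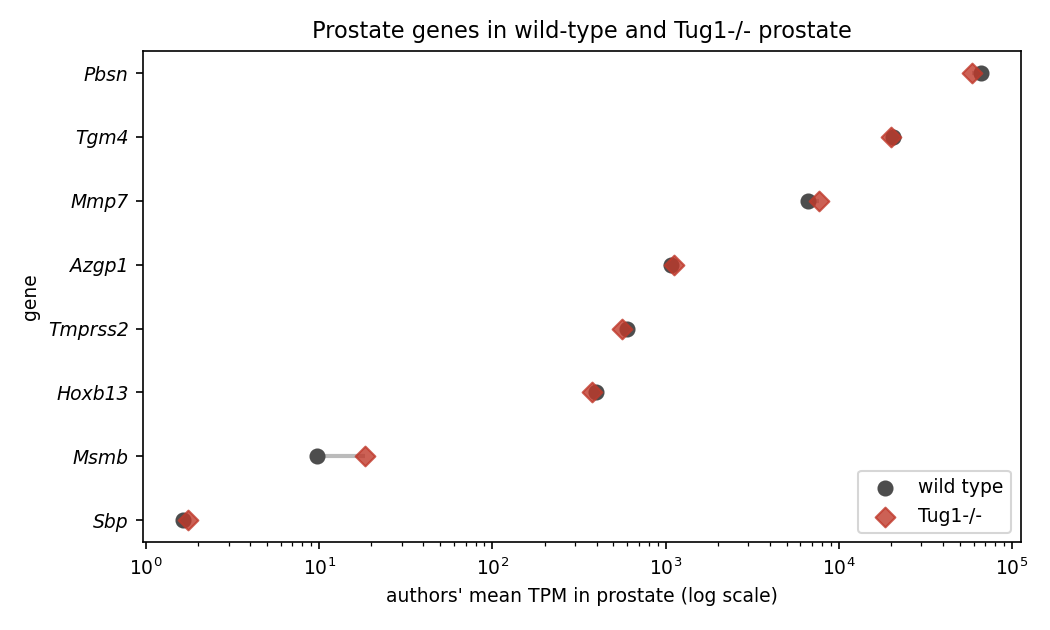
Authors' mean TPM of the 8 genes in prostate on a log axis, with grey circles for wild type and red diamonds for Tug1-/-. The 2 means of a gene lie close together on this axis for each gene other than Msmb, which is at 9.65 and 18.3 TPM in wild-type and Tug1-/- mice.

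Among the secreted proteins, Pbsn (ENSMUSG00000000003.15, chrX:77837901-77853623, minus strand) encodes probasin, a lipocalin whose promoter is widely used to drive transgenes in prostate epithelium. It ranked 1 of all prostate genes in both genotypes. Its mean was 65995 and 58591 TPM in wild-type and Tug1-/- prostate. The Tug1-/- mean was lower by 11.2%, a log2 ratio of -0.17. Log2 ratios are given throughout as Tug1-/- over wild type after adding 1 TPM to both means, which draws the ratios of weak genes toward 0.

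Azgp1 (ENSMUSG00000037053.6, chr5:137981520-137990233, plus strand) encodes zinc-alpha-2-glycoprotein, a secreted relative of MHC class I chains that liver also makes. It had 1068 and 1115 TPM in wild-type and Tug1-/- prostate, with a log2 ratio of 0.06. It was thus 4.45% higher in the Tug1-/- mean, and its rank was 97 in wild type and 87 in Tug1-/-.

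Msmb (ENSMUSG00000021907.13, chr14:32142023-32158370, plus strand) encodes beta-microseminoprotein, a small secreted protein of prostate fluid. It was weak here, with a mean of 9.65 and 18.3 TPM in wild-type and Tug1-/- prostate. The Tug1-/- mean was 1.90 times the wild-type mean, a log2 ratio of 0.86, and the largest ratio among the 8 genes. Only about 104 normalised reads per library lay behind it, by the authors' mean over both genotypes (baseMean), fewer than for each other member except Sbp.

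Sbp (ENSMUSG00000024128.13, chr17:23941672-23945607, plus strand) encodes spermine-binding protein, known as an androgen-dependent product of the ventral lobe. It was the weakest member, at 1.64 and 1.75 TPM in wild-type and Tug1-/- prostate (log2 ratio 0.06), with 32.8 normalised reads on average. Its rank was 13462 in wild type. Sbp has a close relative beside it, Sbpl, at 0.271 and 0.337 TPM in wild-type and Tug1-/- mice. Of the 1586 different 100-base stretches of Sbp transcripts, 9.21% also occur in Sbpl. Read pairs that lie within those stretches may not map uniquely, which was not tested here. With uniquely mapped reads counted, the levels of both genes are therefore uncertain.

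Of the enzymes, Tgm4 (ENSMUSG00000025787.6, chr9:123034726-123067561, plus strand) encodes the prostate transglutaminase, which cross-links seminal proteins in the copulatory plug of rodents. It ranked 4 in wild type and 5 in Tug1-/- prostate, at 20666 and 20140 TPM (log2 ratio -0.04). This was the smallest shift among the 8 genes in percent, 2.54% lower in the Tug1-/- mean. Per length Pbsn exceeded Tgm4 3.19-fold in wild type and 2.91-fold in Tug1-/-. In normalised reads, which grow with transcript length, Tgm4 stood above Pbsn, at 1231006 against 750056. Their longest coding transcripts measure 2785 and 902 bases.

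The 3' end of Tgm4 overlaps Zdhhc3 (chr9:123066160-123113205), a gene on the opposite strand, and the use of strand in counting is not given in the sources used here. Of the 100-base stretches of Tgm4 transcripts, 19.4% also occur, on either strand, in transcripts of Zdhhc3 or Gm49323. That share was taken in GENCODE vM21, whereas reads were counted with vM16, and Gm49323 is not listed in prostate. The share for Zdhhc3 alone was not computed. Zdhhc3 itself had 78.7 and 59.5 TPM in wild-type and Tug1-/- prostate. In the tissues of the same table where Tgm4 was weak it had between 5.28 and 31.6 TPM. Without strand, reads of the overlapping part cannot be told apart between both genes.

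Mmp7 (ENSMUSG00000018623.9, chr9:7692090-7699585, plus strand) encodes matrilysin, a small matrix metalloproteinase that glandular epithelia secrete. It had 6608 and 7658 TPM in wild-type and Tug1-/- prostate. The Tug1-/- mean was 15.9% higher, a log2 ratio of 0.21, the second largest among the 8. Its rank was 15 in wild type and 12 in Tug1-/-. An antisense transcript over its 5' part, AV064505, was at 2.90 and 3.20 TPM in wild-type and Tug1-/- mice, and shares 2.58% of the 100-base stretches of Mmp7.

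Tmprss2 (ENSMUSG00000000385.7, chr16:97564684-97611195, minus strand) encodes a serine protease anchored in the cell membrane, and its gene is known to be induced by androgens. It had 603 and 557 TPM in wild-type and Tug1-/- prostate, a log2 ratio of -0.11. Its rank was 172 in wild type and 181 in Tug1-/-.

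The transcription factor of the group, Hoxb13 (ENSMUSG00000049604.3, chr11:96194316-96197447, plus strand), is a homeodomain protein that is needed for normal ventral prostate differentiation. It had 395 and 375 TPM in wild-type and Tug1-/- prostate, a log2 ratio of -0.07. For Pbsn, Msmb, Azgp1, Tmprss2 and Hoxb13, 0 of the 100-base stretches of their transcripts occurred in transcripts of other genes.

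Across the group, 4 genes were higher in the Tug1-/- mean and 4 were lower. Their median log2 ratio was 0.01, against 0.03 over all 15547 genes with at least 1 TPM. A single member, Msmb, was past a 1.5-fold difference (a log2 ratio of 0.58), in the direction of a higher Tug1-/- mean, where 3.31% of all genes lay. In the direction of a lower Tug1-/- mean there were 0 members, and 1.44% of all genes. The other 7 members had log2 ratios between -0.17 and 0.21, while the middle 80% of all genes ran from -0.18 to 0.29.

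The same shares were taken by level. Of genes with at least 100 TPM in both groups, which takes in 6 members, 1.78% lay past 1.5-fold in either direction, and 0 of the 6 members did. Of genes with a mean of 5 to 50 TPM, where Msmb belongs, 2.32% lay past it in the higher direction. The plot of the ratio against the level shows Msmb outside the 1.5-fold lines and the other 7 genes within them.

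**Figure D2:**
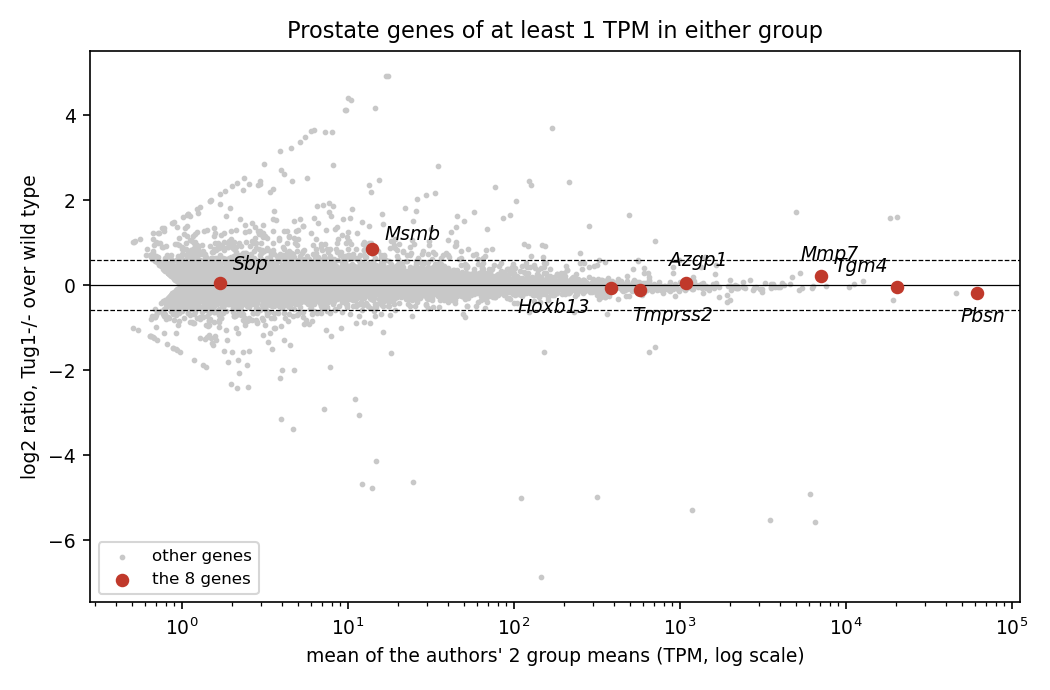
Log2 ratio of the authors' mean TPM, Tug1-/- over wild type, against the mean of both groups (log axis) for 15547 prostate genes, with the 8 genes in red and dashed lines at 1.5-fold. Msmb, at 0.86, is the only one of the 8 outside the lines, and the abundant members from Hoxb13 to Pbsn lie between -0.17 and 0.21.

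Since TPM is a share of a fixed total, large changes elsewhere shift every gene. Among the 10 most abundant genes of wild-type prostate, 2 noncoding ones had far lower Tug1-/- means. Gm23935, annotated as a miRNA gene, had 12784 and 271 TPM in wild-type and Tug1-/- prostate, and CT010467.1, annotated as rRNA, had 11824 and 389 TPM. In the other 6 tissues of the same table the 2 genes ranged from 163 to 1582 TPM. Genes annotated as protein-coding made up 92.9% of the wild-type and 96.5% of the Tug1-/- total. Counted over protein-coding genes alone, the log2 ratios became -0.23 for Pbsn, -0.09 for Tgm4, 0.16 for Mmp7 and 0.81 for Msmb. The rest of the 10 highest were Pbsn and Tgm4, the other prostate secretory genes 9530053A07Rik (49042 and 43115 TPM) and 9530002B09Rik (20516 and 19916 TPM), Ren1 (21513 and 16904 TPM), which encodes the secreted protease renin, mt-Co1 and mt-Cytb of the mitochondrial genome, and the translation factor Eef1a1.

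Upstream of these genes stand the enzymes that make dihydrotestosterone and cofactors of the androgen response. All 10 genes of this list had at least 1 TPM, and 0 were past 1.5-fold, with log2 ratios from -0.19 to 0.22 and a median of 0.09. Srd5a2, the main such enzyme of the prostate, had 18.2 and 20.7 TPM in wild-type and Tug1-/- prostate. Foxa1, a pioneer transcription factor, had 183 and 161 TPM.

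Of 22 other androgen-induced genes, 21 had at least 1 TPM, 16 of these had a positive log2 ratio and the median was 0.13. Fkbp5, which encodes a chaperone of steroid receptors that glucocorticoids induce as well, was the only 1 of the 21 past 1.5-fold, at 20.4 and 36.4 TPM in wild-type and Tug1-/- mice (log2 ratio 0.81). The members and this list therefore had medians of 0.01 and 0.13, beside 0.03 over all genes, and whether the lists differ was not tested.

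Among 7 genes listed here as other prostate secretory genes the median was -0.08. The list was drawn up for this report, and its genes need not be made by the prostate alone. Defb50, a beta-defensin, was past 1.5-fold with a higher Tug1-/- mean (1099 and 1748 TPM, log2 ratio 0.67), and Spinkl, of the serine protease inhibitor family, with a lower one (14.7 and 8.51 TPM, -0.72). For 12 genes of the secretory pathway, the machinery through which these proteins leave the cell, 0 were past 1.5-fold and the median was 0.04.

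**Figure D3:**
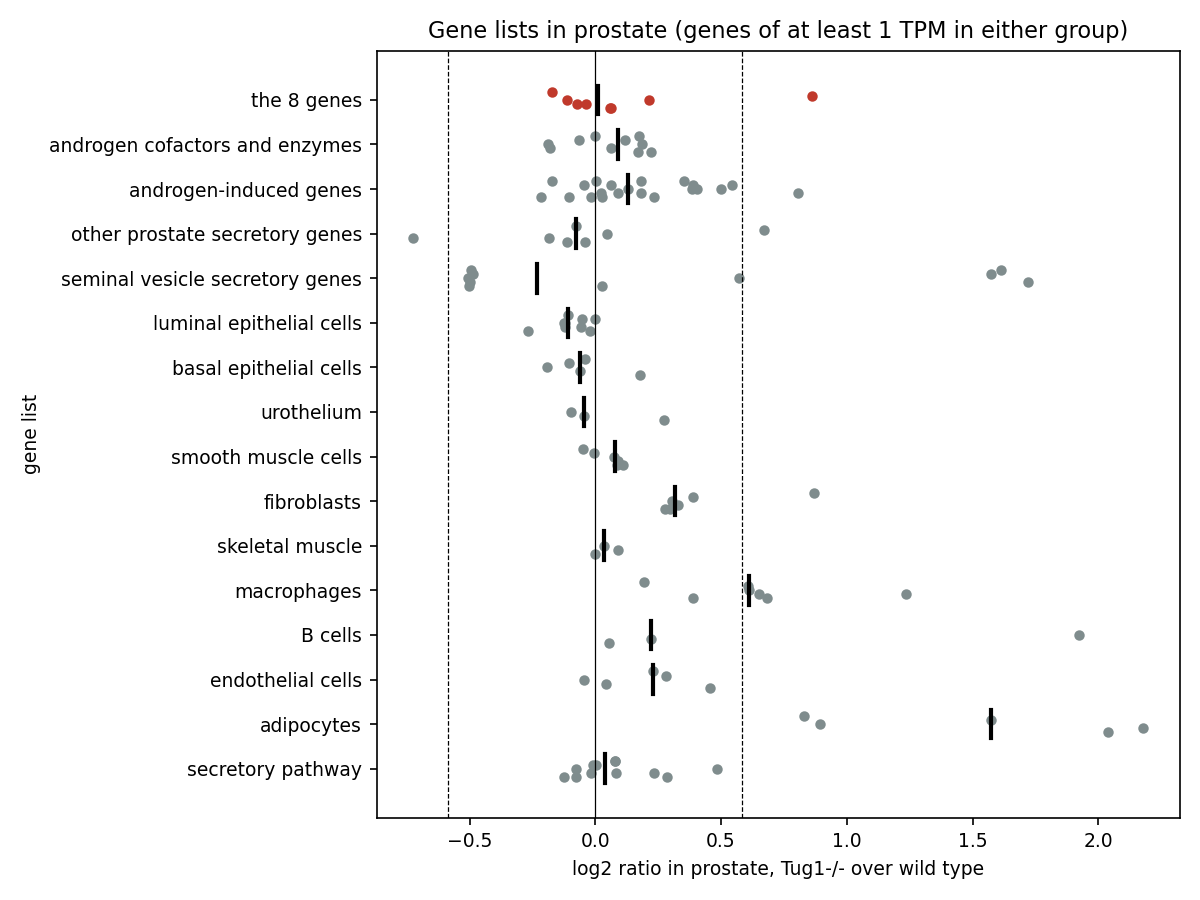
Log2 ratios of the authors' mean TPM in prostate, Tug1-/- over wild type, for the 8 genes (red) and the genes of the other lists (grey), each point 1 gene of at least 1 TPM in either group, with a black bar at each list's median and dashed lines at 1.5-fold. The 8 genes have a median of 0.01, and the adipocyte list, at 1.58, has the highest median.

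The cell types of the gland were compared through markers. All 9 luminal epithelial markers, among them Krt8 and Krt18, had at least 1 TPM, and their log2 ratios ran from -0.27 to -1.56e-05 with a median of -0.11. Their summed level was 6080 and 5552 TPM in wild-type and Tug1-/- mice. The 5 basal markers had a median of -0.06 and the 6 smooth muscle markers a median of 0.08, with 0 genes past 1.5-fold in any of these 3 lists. Pbsn and Tgm4 mark the tissue as prostate in both groups, as the labels say. They do not show which lobes were taken, and Sbp, a product of the ventral lobe, was at 1.64 and 1.75 TPM in wild-type and Tug1-/- mice.

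Markers of other cells and glands differed more between the groups. All 5 adipocyte markers were past 1.5-fold with higher Tug1-/- means, their summed level being 38.8 and 137 TPM in wild-type and Tug1-/- mice. Adipoq, the fat cell hormone adiponectin, had 9.65 and 42.7 TPM. Of 7 macrophage markers 5 were past 1.5-fold in the same direction, and their summed level was 160 and 249 TPM. Mrc1, a mannose receptor of macrophages, had 6.41 and 16.4 TPM.

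Jchain, a plasma cell gene among the 4 B cell markers, had 2.65 and 12.8 TPM. The other 3 were Cd79a and Cd79b, with log2 ratios of 0.05 and 0.22, and Ms4a1, under 1 TPM in both groups. Lum, a fibroblast gene, was the only 1 of 6 fibroblast markers past 1.5-fold, at 12.3 and 23.4 TPM. The 6 fibroblast markers summed to 247 and 324 TPM. T cell and neuroendocrine markers were each under 1 TPM in both groups.

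Of 10 genes secreted by the seminal vesicle, a gland that lies against the prostate, 3 were past 1.5-fold with higher Tug1-/- means. These were Svs2 (10039 and 30715 TPM), Svs5 (9363 and 27896 TPM) and Pate4 (2346 and 7743 TPM). The list as a whole summed to 22336 and 67126 TPM in wild-type and Tug1-/- mice, a sum that these 3 genes carry. Of the 10 genes, 5 had positive and 5 had negative log2 ratios, and the median was -0.23. Of the endothelial (5 markers, median 0.23), urothelial (3 of 5 with at least 1 TPM, median -0.04) and skeletal muscle lists (3 of 7, median 0.03), 0 genes were past 1.5-fold, and 0 of 8 epididymis genes were listed in prostate. The adipocyte and macrophage lists, Jchain, and the 3 seminal vesicle genes were thus higher in the same Tug1-/- mean as Msmb, and their part in the Msmb value was not tested.

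In other tissues most of the 8 genes were weak or not listed at all. The deposited tables leave out genes with fewer than 3 reads in each replicate, so a gene that is not listed was below that level. Pbsn and Sbp were listed in prostate and in 0 of the other 7 tissues. In wild type, 7 of the 8 genes were highest in prostate, and Azgp1 was highest in liver.

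**Figure D4:**
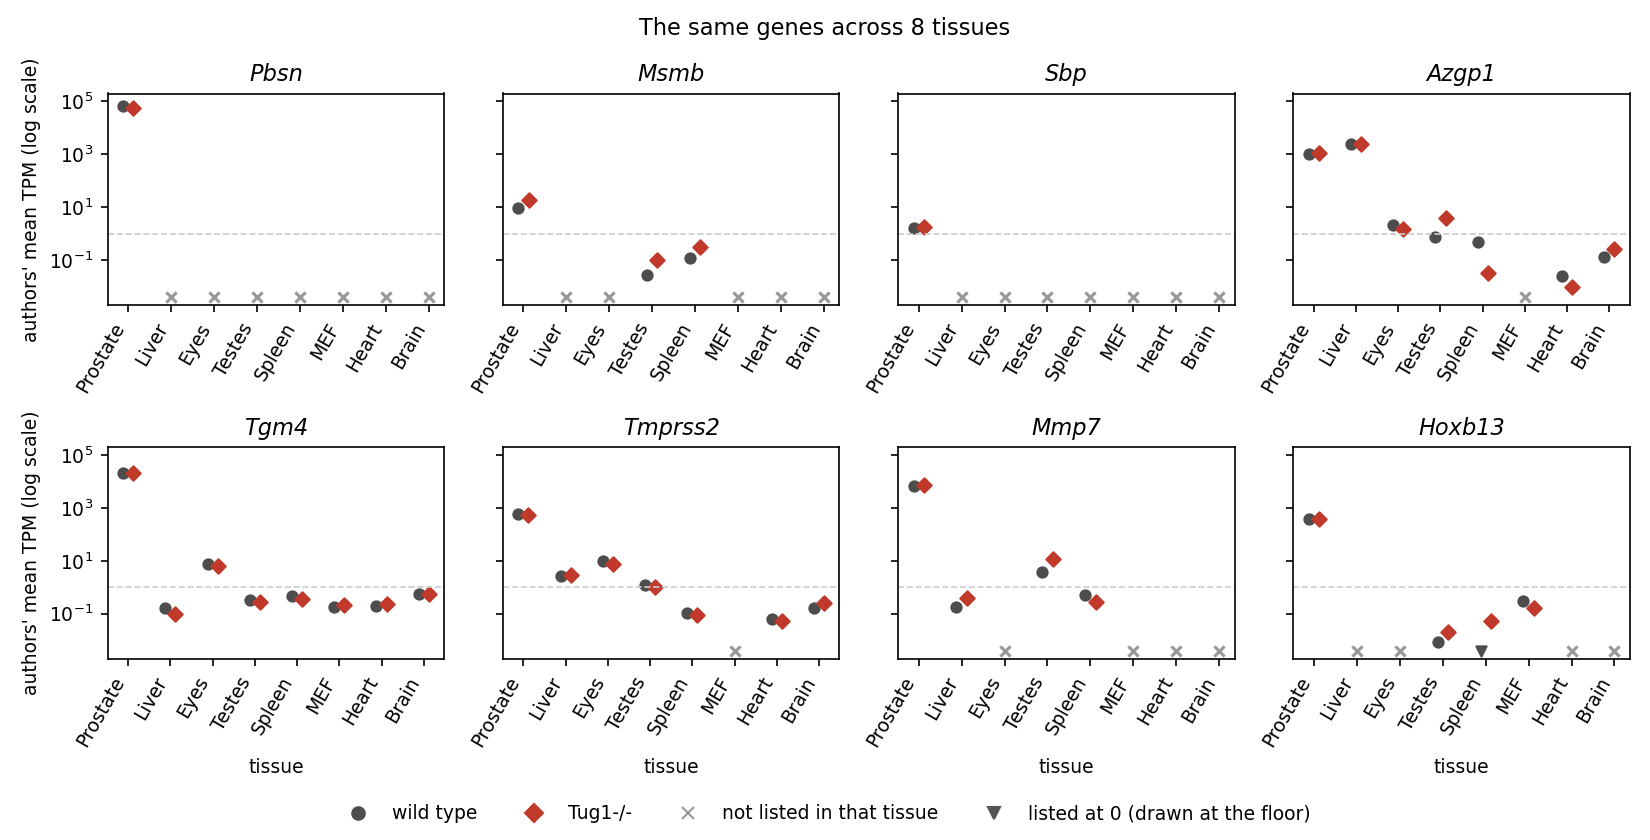
Authors' mean TPM of each of the 8 genes in 8 tissues on a log axis, with grey circles for wild type, red diamonds for Tug1-/-, crosses where the gene is not listed and a dashed line at 1 TPM. Pbsn and Sbp appear in prostate alone, and Azgp1 stands higher in liver (2446 TPM in wild type) than in prostate (1068 TPM).

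Azgp1 had 2446 and 2362 TPM in wild-type and Tug1-/- liver, so its prostate level was 0.437 times that of liver in wild type. It had 2.06 and 1.501 TPM in eyes, and under 1 TPM in wild-type testes, spleen, brain and heart. In MEFs it was not listed. The order of the wild-type means was therefore liver, prostate, eyes and testes.

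Tmprss2 also reached 1 TPM outside the prostate. Its wild-type mean was 9.67 TPM in eyes, 2.73 TPM in liver and 1.19 TPM in testes, and 0.164 TPM or less in brain, spleen and heart. Prostate exceeded eyes 62.3-fold. The Tug1-/- means were 7.85 TPM in eyes and 2.94 TPM in liver.

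Tgm4 was listed in all 8 tissues, but outside the prostate it reached 1 TPM in eyes alone (7.68 and 6.24 TPM), with prostate 2692-fold above eyes in wild type. The overlap with Zdhhc3 described above applies to these low levels as well. Hoxb13 was at most 0.297 TPM in MEFs, spleen and testes, and Msmb at most 0.323 TPM in spleen and testes. Mmp7 was under 1 TPM in liver and spleen in both genotypes.

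Of the 3 members with at least 1 TPM in eyes and the 2 in liver, 0 were past 1.5-fold in either direction, against 4.37% of all genes in eyes and 3.54% in liver. In brain, heart, spleen and MEFs, 0 of the listed members reached 1 TPM.

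Testes values come from a table that was normalised separately, and 6 of the 8 genes are listed in it. Of the 3 members with at least 1 TPM in either genotype, 2 were past 1.5-fold with higher Tug1-/- means, where 1.37% of all testes genes lay. Mmp7 had 3.79 and 11.4 TPM in wild-type and Tug1-/- testes, a 3.01-fold difference. Azgp1 had 0.777 and 3.98 TPM, a 5.12-fold difference. It reached 1 TPM in Tug1-/- testes alone, so it entered the count only through the group where it is high. Tmprss2 had 1.19 and 1.04 TPM.

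Rescue testes had lower means than Tug1-/- testes for all 3 of these genes. The other listed members, under 1 TPM in each testes group, had higher rescue means. In Tug1-/- and rescue testes, Tgm4 had 0.282 and 0.3999 TPM, Msmb 0.0974 and 0.168 TPM, and Hoxb13 0.021 and 0.0744 TPM. Mmp7 was at 0.114 TPM and Azgp1 at 0.182 TPM in rescue testes, so that both also lay under their wild-type means. In this comparison Mmp7, Azgp1 and Tmprss2 reached 1 TPM through the Tug1-/- group alone, and such a choice favours lower rescue means. Of these 3 members, 2 were past 1.5-fold lower over the Tug1-/- means, beside 1.79% of all genes. Because of that choice the count is a description and not a result about the members. Tmprss2 had 0.396 TPM in rescue testes, a log2 ratio of -0.55 over Tug1-/-, which is short of 1.5-fold with 1 TPM added, while the Tug1-/- mean as deposited was 2.62 times the rescue mean. Both comparisons use the same Tug1-/- testes, so they are not independent.

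Genes of neighbouring glands moved in the same libraries. Of 8 epididymis genes, 7 were past 1.5-fold lower in Tug1-/- than in wild-type testes, beside 2.29% of all testes genes, and the list summed to 3692 TPM in wild type, 677 TPM in Tug1-/- and 599 TPM in rescue testes. Lcn8, a lipocalin of the epididymis, had 799, 0.244 and 0.160 TPM in this order. Adam7, another epididymis gene, had 326, 39.8 and 0.0193 TPM, whereas Cst8, which germ cells also express, had 747, 626 and 590 TPM.

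Genes of the list of other prostate secretory genes were detected in testes too, and where their transcripts came from was not tested. Spinkl had 2.93 TPM in wild type, 9.75 TPM in Tug1-/- and 0.0904 TPM in rescue testes, the same order of groups as Mmp7 and Azgp1. Spink8 had 344, 205 and 4.49 TPM, beside 405 TPM in wild-type prostate, so it was not particular to prostate in these data. Of the other 4 genes of that list in the testes table, 9530002B09Rik had 17.3, 16.8 and 17.2 TPM, Acpp had 1.90, 1.03 and 0.834 TPM, and 9530053A07Rik and Gm5615 were under 1 TPM in each group. Tgm4, more abundant than Mmp7 in prostate, had 0.322, 0.282 and 0.3999 TPM in testes. Of 9 seminal vesicle genes in that table, 2 were past 1.5-fold higher in Tug1-/- than in wild-type testes, and the list summed to 40.3, 36.9 and 17.5 TPM. Svs1 had 0.0377, 1.95 and 0.0275 TPM, again highest in Tug1-/-, and Ceacam10 had 29.3, 19.5 and 0.617 TPM. The part of other glands in the testes values of Mmp7 and Azgp1 was not tested.

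**Figure D5:**
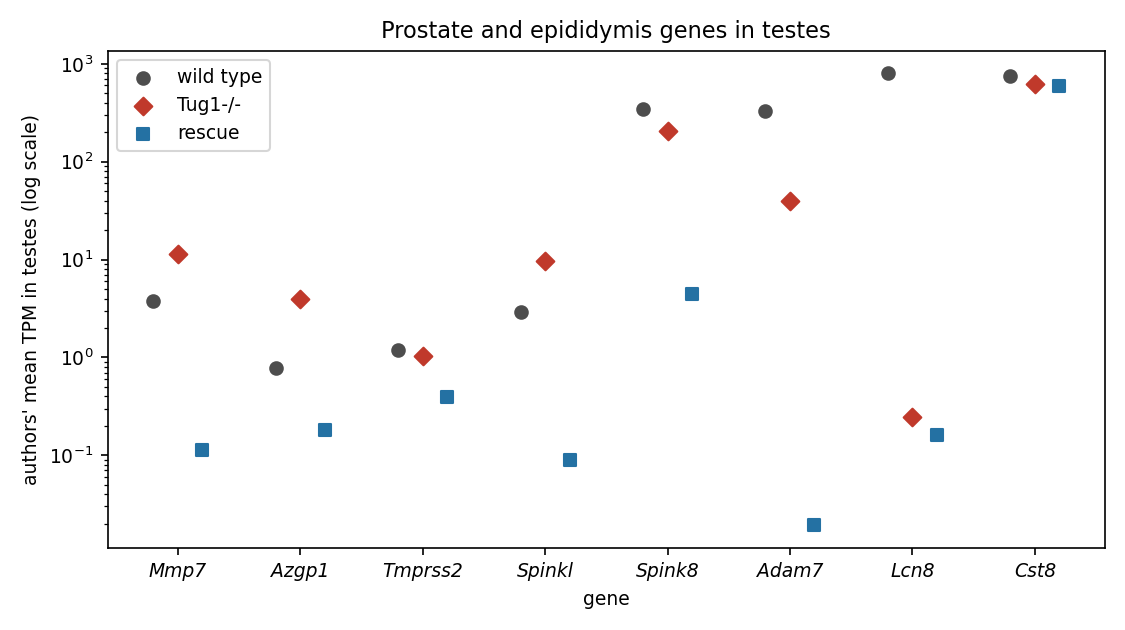
Authors' mean TPM in testes on a log axis for Mmp7, Azgp1, Tmprss2 and 5 secretory genes, with grey circles for wild type, red diamonds for Tug1-/- and blue squares for rescue. Mmp7, Azgp1 and Spinkl are highest in Tug1-/-, while Spink8, Adam7, Lcn8 and Cst8 are highest in wild type.

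The genes most like each member were taken from 15547 prostate genes by the Pearson correlation of log2(mean TPM + 1) over 16 group means, those of 8 tissues in both genotypes, with a gene that is not listed set to 0. These points share genotype groups and normalisation, and a gene present in prostate alone gives a correlation near 1 whatever its level, so the values are a description. Pbsn was nearest to Gm43342 (34.5 TPM in wild-type prostate) and AC114008.1 (3.05 TPM), both with r above 0.999, and 75 genes other than members had r above 0.99 with it. Hoxb13 was nearest to 9530053A07Rik, one of the other prostate secretory genes, and again Gm43342, both with r above 0.999, with 73 genes above 0.99.

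For Sbp the nearest were AV064505, the transcript antisense to Mmp7, and Defa-ps11 (both above 0.999), with 72 genes above 0.99. Mmp7 was nearest to Gm20521 (0.998) and Svs6 (0.997), Tgm4 to Prlh (0.997) and Fcgbp (0.997), and Msmb to Mir200c (0.997) and AC153936.1 (0.997). The 2 members with levels in several tissues had no gene above 0.99. Azgp1 was nearest to Apof (0.978), which encodes an apolipoprotein and had 148 TPM in wild-type prostate, and to 2210039B01Rik (0.976). Tmprss2 was nearest to AI463170 (0.989) and Tmem54 (0.978).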

How the data were processed

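PolyA libraries (TruSeq v2, paired reads) were, by the study's methods, mapped by the authors with STAR to GRCm38, and uniquely mapped reads were counted per gene of GENCODE vM16 with featureCounts. The processed tables used here hold the authors' group mean TPM per gene. In the table of 7 tissues the deposited TPM columns hold all tissues one under another, and its baseMean column is a signal that the authors computed with DESeq2, the mean of normalised reads over both genotypes. The deposited tables also hold the authors' own fold changes, errors, statistics, p-values and adjusted p-values, which were not used. Values and depth of single samples were not used here, so no interval is given.

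Ratios are log2((Tug1-/- mean TPM + 1)/(wild-type mean TPM + 1)), and a gene counts as past 1.5-fold among genes with at least 1 TPM in either group. The study uses this fold for genes near Tug1. No test was made. Members and lists were chosen with earlier results of these data known. Named are the 8 members, up to 4 genes past 1.5-fold per list, defining markers near 0, the 10 highest wild-type prostate genes, the 2 genes most like each member, and Tug1. Srd5a2, Foxa1, the genes that overlap or resemble a member, and the testes genes beside Mmp7 and Azgp1 were named after their values were seen. Some genes of the planned lists are not reported here. Shared 100-base stretches were sought in GENCODE vM21 transcripts on both strands, and promoter windows came from RefSeq (GRCm38.p6). The ratio step was tested on simulated data. F1 hybrid testes (6 samples) were not analysed here. Alternatives were other pseudocounts, scalings, minima and a fold limit of 2. Ratios and plots were made with pandas 2.3.3, numpy 2.4.6 and matplotlib 3.10.9 under Python 3.11.15.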

Additional observations from a re-analysis of the deposited data

How the results depend on the processing

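No paired analysis was possible because the columns used hold group means, and for the same reason no replicate could be left out. With a pseudocount of 0.1 TPM or none, Tug1-/- means scaled by the median ratio (1.02), or the 20 most abundant genes left out of the total with members kept, each member's log2 ratio moved by less than 0.1, as it did over protein-coding genes alone, an alternative chosen after seeing the data. Msmb ranged from 0.81 to 0.93. It was the 1 member past 1.5-fold in each setting except a fold limit of 2, which left 0. The median of the members, 0.01, turned slightly negative with median-ratio scaling (-0.02), protein-coding genes alone (-0.04) and a minimum of 5 TPM (-0.04), which drops Sbp. Of all prostate genes, 4.75% were past 1.5-fold, against 7.99% with a pseudocount of 0.1, 8.27% with none and 1.74% past 2-fold. Counting error was not computed, and the fewest normalised reads lay behind Sbp (32.8) and Msmb (104).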

Other observations

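Within the list of seminal vesicle genes, prostate values lay on both sides of 0. Beside Svs2, Svs5 and Pate4, with log2 ratios of 1.61, 1.57 and 1.72, Svs4 had 454 and 674 TPM in wild-type and Tug1-/- mice (0.57). Among the weaker genes, Svs1 (20.8 and 14.6 TPM), Svs3a (17.6 and 12.1 TPM), Svs3b (15.6 and 10.8 TPM), Svs6 (61.2 and 43.1 TPM) and Spink1 (5.39 and 3.50 TPM) had ratios from -0.51 to -0.49, whereas Ceacam10, also weak (13.3 and 13.5 TPM), had a ratio of 0.03. The median of the 10 genes was -0.23 while their summed TPM was 3.01 times as high in Tug1-/-. These genes were named after their values were seen.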
